A study of Rattus norvegicus with 16 samples.

Results

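The pyramidal layers of CA1 and CA3 of the rat hippocampus were compared by RNA sequencing of laser microdissected tissue. Members were taken from the library labels as the 4 CA1 and the 4 CA3 libraries, which made 8 of the 16 libraries of the series. The other 8 libraries were from the pyramidal layer of CA2 and from the granular layer of the dentate gyrus (DG), and CA2 is used below to place the genes that differed. All libraries came from 4 untreated male Wistar rats aged 3 months, with 4 libraries labelled per subfield. The labels and methods name no treatment or transgene for any group. No label names the rat, and shared replicate numbers were taken to mark it. Layers were cut from sections stained with Cresyl Violet, so each library holds the RNA of every cell in the cut layer and not of pyramidal neurons alone. In such bulk tissue, fewer cells of a type and less RNA per cell cannot be told apart.

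CA3 pyramidal neurons receive the mossy fibres of dentate granule cells, excite each other through recurrent collaterals, and send Schaffer collaterals to the dendrites of CA1 neurons. CA1 neurons have few recurrent connections and form the main output of the hippocampus to the subiculum and the cortex. CA2 lies between both fields and is known for its resistance to long-term potentiation and its part in social memory. Transcription factors set the identity of each field during development, and adhesion molecules, channels and neurotransmitter receptors give it its wiring and its excitability.

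The 4 CA1 libraries held 3216512 to 10332244 counts and the 4 CA3 libraries 6587243 to 11933279, and levels are given as CPM, the counts of a gene relative to its library's total after scaling by the TMM method, in the order of replicates 1 to 4. CPM are not corrected for gene length, so they compare libraries and not genes. The deposited counts name genes by Ensembl identifier, and 288 of the 17174 genes tested could be given a symbol, from the marker lists that the study chose on these same libraries. Counts of those marker genes are therefore a description and no independent evidence of their direction. Replicate 2 of CA3 held more of the CA1 genes than the other CA3 libraries, replicate 3 of CA3 was dominated by a few very abundant genes, and replicate 4 of CA3 held the most of the DG genes. Replicate 2 of CA1 held more of the CA3 genes than the other CA1 libraries. These libraries are described at the end, and values without them are given where they move a result. Leaving out another library of the same field moved some of these fold changes the other way, and for some genes that value is given too. Replicates 2 and 4 of CA2 differed by no more than sampling noise in a chi-square test (p = 0.456) and were counted as 1 library, which left 3 CA2 libraries. Replicates 2 and 4 of DG differed by slightly more than sampling noise (p = 0.00176) but far less than any other pair within a subfield, with a chi-square 1.036 times its degrees of freedom against 2.80 times or more, and were also counted as 1 library.

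Upstream sequences are shown for the genes of smallest p in each direction that had both a symbol and an entry. Genes of smaller p that lacked either were passed over. They are the 250 bases before the transcription start of 2 genes higher in CA1 and 2 genes higher in CA3, from RefSeq on build GRCr8, 5′ to 3′ on the strand of the gene. That build is not the one used for the counts. Of the 288 genes with a symbol, 201 had an entry. Capitals mark CANNTG, the E-box read by basic helix-loop-helix factors. A stretch that matches this pattern matches it on both strands, though its 2 middle letters can differ between them. Arhgap12 lies downstream of chr17:56284036-56284285 on the plus strand, Olfm3 of chr2:205598709-205598958 on the plus strand, Frem3 of chr19:44271138-44271387 on the minus strand and Gjd2 of chr3:121229368-121229617 on the minus strand.
Arhgap12: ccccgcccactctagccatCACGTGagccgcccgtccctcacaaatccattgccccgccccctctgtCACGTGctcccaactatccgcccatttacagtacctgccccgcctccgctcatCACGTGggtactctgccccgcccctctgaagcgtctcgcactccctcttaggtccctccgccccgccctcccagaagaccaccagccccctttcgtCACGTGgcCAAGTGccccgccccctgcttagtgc
Olfm3: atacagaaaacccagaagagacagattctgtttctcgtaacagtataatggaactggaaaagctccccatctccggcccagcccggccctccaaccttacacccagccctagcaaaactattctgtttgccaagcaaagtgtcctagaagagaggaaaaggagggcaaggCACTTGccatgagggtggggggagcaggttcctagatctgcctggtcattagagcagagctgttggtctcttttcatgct
Frem3: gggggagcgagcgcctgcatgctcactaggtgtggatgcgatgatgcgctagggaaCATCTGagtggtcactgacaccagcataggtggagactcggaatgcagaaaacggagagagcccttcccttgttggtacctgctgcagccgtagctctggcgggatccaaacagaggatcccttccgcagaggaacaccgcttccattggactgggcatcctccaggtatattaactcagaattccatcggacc
Gjd2: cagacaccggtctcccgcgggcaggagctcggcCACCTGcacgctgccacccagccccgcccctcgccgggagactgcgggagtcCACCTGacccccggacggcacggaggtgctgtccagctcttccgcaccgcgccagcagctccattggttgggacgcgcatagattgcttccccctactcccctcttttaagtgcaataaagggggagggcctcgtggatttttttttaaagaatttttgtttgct
The Arhgap12 sequence held 5 E-boxes, none of which overlapped another. The Gjd2 sequence held 2, both of them CACCTG in letters, and those of Olfm3 and Frem3 held 1 each. Of 33469 rat promoters of the same length, 65.5% held at least 1 E-box, with a median of 1. None of the 4 sequences held TATAAA on either strand, which 12.9% of all these promoters held.

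Of 17174 genes tested, 4254 (24.8%) were called different between CA1 and CA3 by the quasi-likelihood test of edgeR, with an adjusted p below 0.05. CA1 was higher for 2079 of them (12.1% of genes tested) and CA3 for 2175 (12.7%), so the split was nearly even. Most differences were small, with a median log2 fold change of CA1 over CA3 of 0.81 among the genes higher in CA1 and -0.70 among those higher in CA3. A difference of at least 4-fold was seen for 323 genes higher in CA1 and 265 higher in CA3, and one of at least 16-fold for 66 and 49. Few of the strong differences were in genes with many counts: of the genes at least 4-fold apart, 19 higher in CA1 and 22 higher in CA3 reached 100 CPM in the higher subfield. Of all genes called, 333 and 614 did. The median level in the higher subfield was 2.3 and 2.1 CPM for the genes at least 4-fold apart. For those at least 16-fold apart it was 0.825 and 0.705 CPM, so many of these rest on few reads. The libraries did not overlap for 45 of the 66 and 41 of the 49. All 4 CA1 libraries lay above all 4 CA3 libraries for 2023 genes (11.8%) and all 4 below for 2157 (12.6%).

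**Figure D1:**
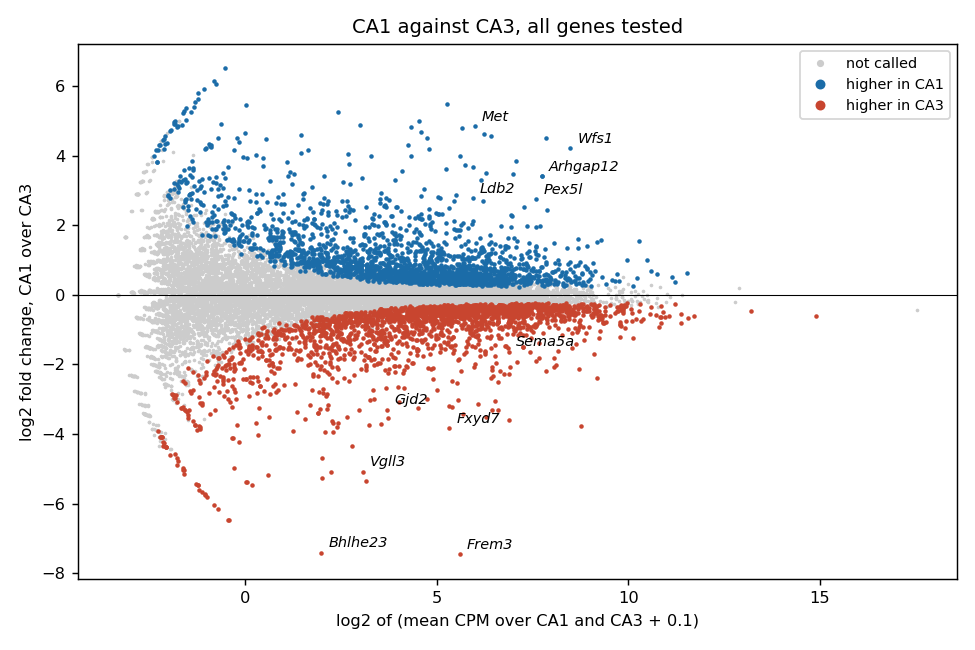
Log2 fold change of CA1 over CA3 (vertical axis) against log2 of the mean CPM + 0.1 (horizontal axis) for each of the 17174 genes tested, with the 4254 genes at an adjusted p under 0.05 coloured by direction. Both directions hold about the same number of genes, 2079 and 2175, and the largest fold changes lie at low and middle CPM.

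Several genes of receptors for neurotransmitters and growth factors were much higher in CA1. Htr1b, the serotonin 1B receptor, had 31.4, 36.8, 42.5 and 33.4 CPM in CA1 and 0.371, 4.92, 0.423 and 0.486 CPM in CA3. CA1 lay far above CA3 in every library, and the value of replicate 2 stood out among the CA3 libraries. The log2 fold change of CA1 over CA3 was 4.32 ± 0.43 (SE, adjusted p = 1.26e-07), and 6.37 without replicate 2 of CA3. Htr5b, the serotonin 5B receptor, had 55.1, 54.8, 56.3 and 45.8 CPM in CA1 and 1.48, 6.56, 1.16 and 1.46 CPM in CA3, which gave 4.18 ± 0.33 (adjusted p = 6.47e-09) and 5.29 without that CA3 library. Met, the receptor of hepatocyte growth factor, had 116, 106, 121 and 148 CPM in CA1 and 1.48, 10.7, 1.27 and 1.95 CPM in CA3, and its log2 fold change of 4.84 ± 0.42 (adjusted p = 1.94e-08) became 6.31 without it. The libraries of both fields did not overlap for any of these 3 receptors. Drd5, the dopamine D5 receptor, was less abundant, with 5.98, 4.88, 7.18 and 2.17 CPM in CA1 and 0.123, 0.777, 0.106 and 0 CPM in CA3, and its log2 fold change was 4.07 ± 0.52 (adjusted p = 4.21e-06) with and 5.76 without replicate 2 of CA3. Drd1, the dopamine D1 receptor, was higher in CA1 by only 1.79-fold, with 2.03 ± 0.375 (SD, n = 4) against 1.14 ± 0.134 CPM (SD, n = 4) and an adjusted p of 0.0216, which rose to 0.0841 when the rat was a block in the fit. It kept the call in 9 of 18 other settings, and lost it without replicate 1 or without replicate 2 of CA1. The study lists Drd1 as a DG marker, and DG held a mean of 9.05 CPM of it. Gabrr2, a rho subunit of ionotropic GABA receptors, had 15.3, 12.9, 17.6 and 13.9 CPM in CA1 and 2.1, 3.02, 2.75 and 2.43 CPM in CA3, a 5.71-fold difference (adjusted p = 1.03e-08). Galr1, the galanin 1 receptor, was 4-fold higher in CA1 (adjusted p = 5.00e-04), with 7.53, 3.22, 3.59 and 3.09 CPM in CA1 and 1.73, 0.864, 1.06 and 0.81 CPM in CA3.

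Some genes of transcription and development were also higher in CA1, while others, Bhlhe23 and Vgll3 below, were higher in CA3. Ldb2, a cofactor of LIM-homeodomain factors, had the smallest p of the CA1 genes with a symbol. Its levels were 117, 97.7, 101 and 112 CPM in CA1 and 18.3, 18, 15.3 and 9.88 CPM in CA3, and its log2 fold change of 2.78 ± 0.17 (adjusted p = 1.80e-10) hardly moved without replicate 2 of CA3, at 2.86. Zcchc12, a zinc-finger coactivator that the study lists as a DG marker, was 2.51-fold higher in CA1 (adjusted p = 7.97e-08), with 152, 106, 122 and 117 CPM in CA1 and 54, 46.9, 50.1 and 47.2 CPM in CA3. DG held a mean of 502 CPM of it. Wnt3a, a secreted ligand needed for hippocampal development, had 4.02, 1.84, 3.59 and 0.928 CPM in CA1, was at 0 in 3 CA3 libraries and had 0.345 CPM in replicate 2 of CA3 (adjusted p = 5.81e-05).

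Wfs1, an endoplasmic reticulum membrane protein and a classical marker of CA1, was among the genes with the highest CPM in this group. It had 776, 712, 610.3 and 616 CPM in CA1 and 8.65, 106, 13.4 and 13.8 CPM in CA3, so that replicate 2 of CA3 lay far above the other CA3 libraries and still far below CA1. The log2 fold change was 4.21 ± 0.53 (adjusted p = 3.80e-06), 5.83 without that library and 3.89 without replicate 1 of CA3. Arhgap12, a GTPase-activating protein of small GTPases, had 434, 403, 347 and 380.4 CPM in CA1 and 24.8, 57.3, 33.7 and 30.3 CPM in CA3, with a log2 fold change of 3.40 ± 0.21 (adjusted p = 2.55e-10). Pex5l, an auxiliary subunit of HCN channels also known as TRIP8b, had 292, 329, 355 and 375 CPM in CA1 and 39.8, 69.6, 46.9 and 43.3 CPM in CA3 (2.75 ± 0.20, adjusted p = 1.72e-09). Neither gene overlapped between the fields. Olfm3, a secreted olfactomedin-domain protein of the nervous system, had 85.6, 88.7, 72.7 and 73.6 CPM in CA1 and 7.04, 16.8, 11.1 and 7.62 CPM in CA3 (7.34-fold, adjusted p = 4.87e-10). Ndst4, an enzyme of heparan sulfate synthesis, had 77.4, 67.9, 76.1 and 60.9 CPM in CA1 and 2.84, 11.5, 4.76 and 2.27 CPM in CA3, with a log2 fold change of 3.63 ± 0.28 (adjusted p = 4.66e-09) and 4.38 without replicate 2 of CA3. Cdh6, a type II cadherin, was 4.96-fold higher in CA1 (adjusted p = 2.50e-07), with 14.9, 16.8, 17.4 and 19.2 CPM in CA1 and 2.47, 4.66, 2.85 and 3.4 CPM in CA3.

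Other genes higher in CA1 are better known from other tissues. Lyzl4, a lysozyme-like protein, had 56.3, 41.1, 45 and 37.4 CPM in CA1 and 0.618, 3.54, 0.423 and 0.324 CPM in CA3 (4.98 ± 0.40, adjusted p = 5.67e-09, and 6.57 without replicate 2 of CA3). Cd3e, a chain of the T cell receptor complex, had 19.2, 13.4, 6.95 and 8.35 CPM in CA1 and 0.494, 1.9, 0.106 and 0 CPM in CA3 (4.04 ± 0.50, adjusted p = 2.77e-06, and 5.77 without that library). Ackr2, a scavenging chemokine receptor, was 9.08-fold higher in CA1 (adjusted p = 1.06e-06) and its log2 fold change rose from 3.18 ± 0.37 to 4.30 without replicate 2 of CA3. Crabp1, which binds retinoic acid in the cytosol, was 7.55-fold higher in CA1 (adjusted p = 1.77e-06), and Epgn, a ligand of the EGF receptor, 4.15-fold (adjusted p = 8.77e-07). RGD1563354 had 30.7, 21.1, 26.9 and 29.7 CPM in CA1 and 2.96, 3.19, 2.01 and 2.59 CPM in CA3 (9.9-fold, adjusted p = 1.94e-10). Some CA1 genes had so few CA3 reads that only the ratio of CPM with its counting interval is given: C1qtnf7, with 48 counts over the CA1 and 2 over the CA3 libraries, had a ratio of 26.1 (95% interval 6.85 to 222). AY172581.19 was called higher in CA1 on 1 library alone, with 1.13, 33.5, 2.09 and 3.4 CPM in CA1 and 0.988, 2.16, 3.28 and 1.13 CPM in CA3, and its log2 fold change of 2.44 was -0.01 without replicate 2 of CA1. All 34 genes of the study's CA1 marker list were higher in CA1 at an adjusted p under 0.05, against 12.1% of all genes tested, and with 1 of the 8 libraries left out they were 33, without replicate 2 of CA1 or replicate 1 of CA3, or 34, without any of the others. They were 33 without replicates 1 and 2 of CA3 together and 31 without replicates 2 and 3 together.

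**Figure D2:**
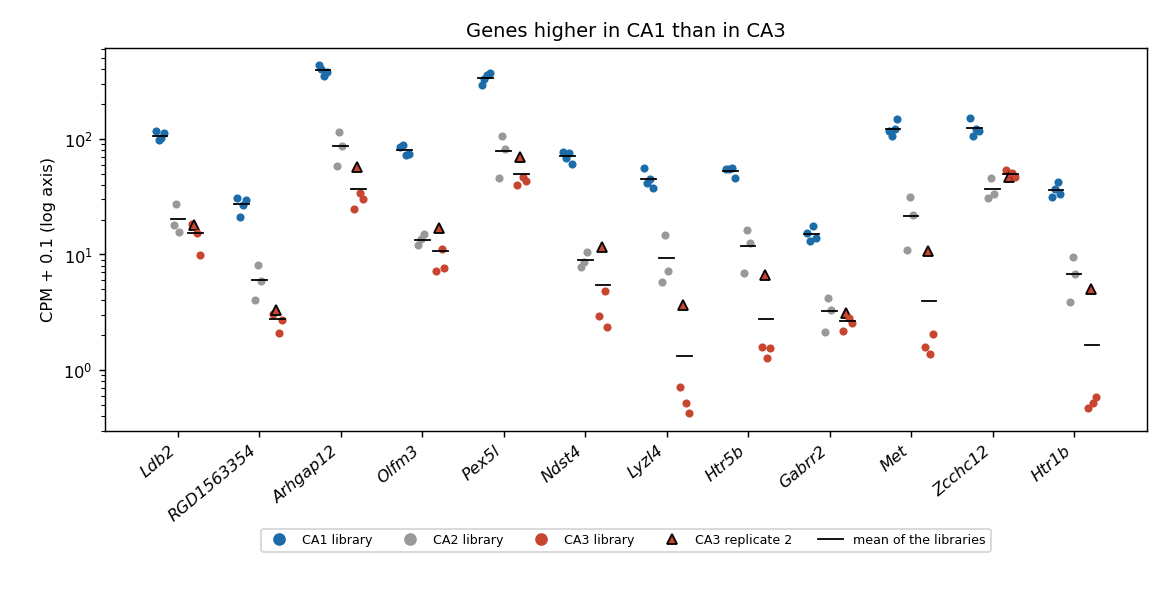
CPM + 0.1 on a log axis in each CA1, CA2 and CA3 library for the 12 CA1 genes of smallest p that have a symbol, with 1 point per library, a triangle for replicate 2 of CA3 and a bar at the mean. The 4 CA1 points stand above the CA3 points for every gene drawn, and the triangle lies well above the other CA3 points for Lyzl4, Htr5b, Met and Htr1b.

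Among the genes higher in CA3, Frem3, an extracellular matrix protein of the FREM family, stood first. It had 0, 0.921, 0.116 and 1.86 CPM in CA1 and 97, 99.4, 96.4 and 90.1 CPM in CA3, so that the CA3 libraries agreed within a narrow range and CA1 was close to 0. CA3 was 176-fold higher, with a log2 fold change of CA1 over CA3 of -7.46 ± 0.35 (SE, adjusted p = 8.07e-12) and -8.11 without replicate 2 of CA1. Fxyd7, a regulator of the sodium-potassium pump, had 3.81, 5.52, 6.03 and 5.88 CPM in CA1 and 71.9, 87.5, 66.3 and 73.7 CPM in CA3, with a log2 fold change of -3.84 ± 0.23 (adjusted p = 1.73e-10). Gjd2, connexin 36 of electrical synapses, had 2.58, 3.5, 1.62 and 0.928 CPM in CA1 and 27.8, 23.7, 22.3 and 21.1 CPM in CA3 (-3.30 ± 0.22, adjusted p = 6.86e-10). Hcrtr2, the orexin receptor 2, had 1.24, 1.75, 0.927 and 1.86 CPM in CA1 and 13.8, 16, 13.1 and 12.8 CPM in CA3 (-3.31 ± 0.25, adjusted p = 2.64e-09). The libraries of CA1 and CA3 were clear of each other for all 4 genes. Tacr2, the neurokinin 2 receptor, was less abundant, with 0.516, 0.737, 0.811 and 0.619 CPM in CA1 and 6.18, 4.83, 2.01 and 3.08 CPM in CA3 (5.87-fold, adjusted p = 1.04e-04).

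A pair of transcriptional regulators were nearly absent from CA1. Bhlhe23, a basic helix-loop-helix factor, had 6.67, 8.2, 7.72 and 7.94 CPM in CA3, and 1 count in all CA1 libraries against 271 in CA3. The ratio of CA3 over CA1 in CPM was 249 (95% interval 44.3 to 9866), where the interval covers counting error only, and the adjusted p was 2.90e-09. Vgll3, a cofactor of TEAD factors, had 0.206, 1.01, 0.116 and 0.309 CPM in CA1 and 16.3, 12.7, 15.1 and 20.3 CPM in CA3. Its log2 fold change of -5.08 ± 0.39 (adjusted p = 3.52e-09) was -6.32 without replicate 2 and -4.80 without replicate 1 of CA1. Cyp26b1, which degrades retinoic acid, had 0.309, 1.2, 1.04 and 0.619 CPM in CA1 and 4.2, 4.49, 7.29 and 6.48 CPM in CA3 (6.66-fold, adjusted p = 1.93e-06). Mx1, an interferon-induced GTPase, had 5.67, 5.16, 4.63 and 2.17 CPM in CA1 and 39, 21.4, 42.2 and 19.4 CPM in CA3, where replicates 1 and 3 of CA3 were higher than replicates 2 and 4 (-2.69 ± 0.30, adjusted p = 6.95e-07). Col8a2, a chain of type VIII collagen, had 0, 0.644, 0.232 and 0 CPM in CA1 and 6.05, 4.32, 10.9 and 8.75 CPM in CA3 (-4.70 ± 0.55, adjusted p = 1.25e-06). Its log2 fold change was -6.12 without replicate 2 and -4.22 without replicate 1 of CA1. Fermt1, kindlin-1 of integrin adhesion, had 2 counts over the CA1 libraries and 94 over the CA3 libraries, a CA3 over CA1 ratio in CPM of 43.2 (95% interval 11.6 to 362). RT1-M6-1, a class I histocompatibility gene, and Olr1353, an olfactory receptor gene, were 14.9-fold and 16.4-fold higher in CA3 with means of 4.33 ± 1.28 and 2.21 ± 0.499 CPM (SD, n = 4). They had only 9 and 4 counts over the CA1 libraries. The 95% counting intervals of their CA3 over CA1 ratios in CPM were 7.64 to 33.2 and 6.81 to 68.2. The log2 fold change of RT1-M6-1 was -4.81 without replicate 2 of CA1. That of Olr1353 went from -4.03 to -7.28 without replicate 1 of CA1 and to -3.505 without replicate 2. Both belong to large families whose members can share reads. All 14 genes of the study's CA3 marker list were higher in CA3, against 12.7% of all genes tested, and all 14 were so with any 1 of the 8 libraries left out, and 13 without replicates 1 and 2 together.

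**Figure D3:**
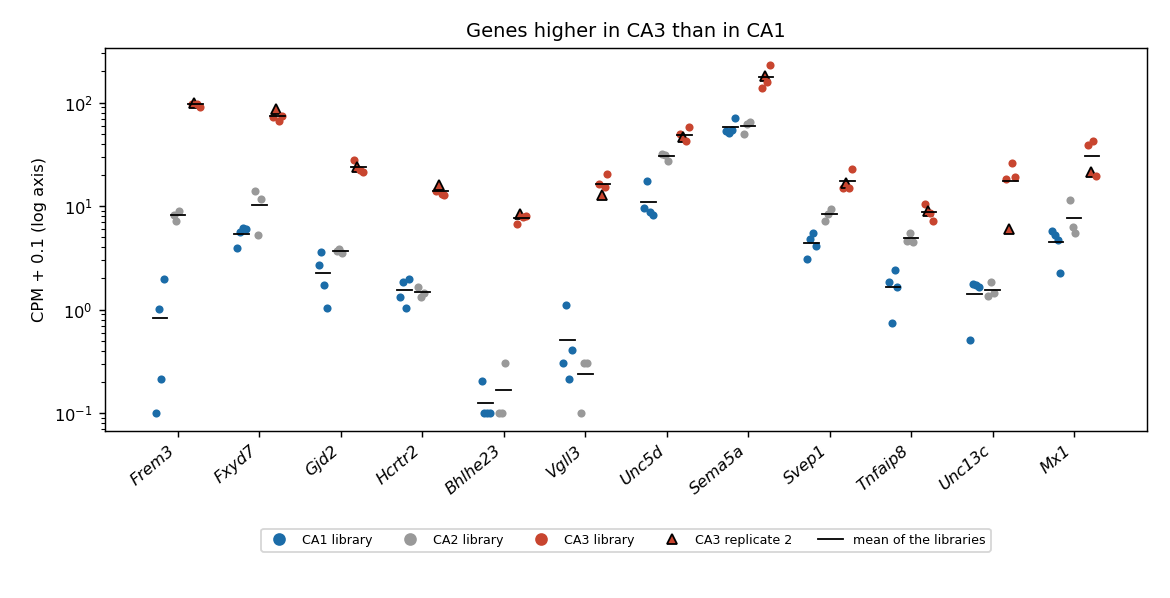
CPM + 0.1 on a log axis in each CA1, CA2 and CA3 library for the 12 CA3 genes of smallest p that have a symbol, with 1 point per library, a triangle for replicate 2 of CA3 and a bar at the mean. CA3 libraries lie above CA1 libraries throughout. CA2 lies near CA1 for several genes, among them Hcrtr2, Bhlhe23, Vgll3, Sema5a and Unc13c, and part of the way up for others, among them Frem3 and Unc5d.

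A further group was higher in CA3 than in CA1 and highest in the dentate gyrus, where the study lists its members as DG markers. Unc5d, a netrin receptor, had 9.59, 17.3, 8.69 and 8.04 CPM in CA1 and 49.4, 46.5, 42.1 and 57.4 CPM in CA3 (-2.10 ± 0.18, adjusted p = 1.30e-08), against 224 ± 18.6 CPM in DG (SD, n = 3). Sema5a, a semaphorin of axon guidance, had 53.6, 50.5, 54.8 and 70.5 CPM in CA1 and 139, 181, 157 and 229 CPM in CA3 (-1.64 ± 0.14, adjusted p = 2.24e-08), against 706 ± 71.4 CPM in DG. The CA1 and CA3 libraries did not overlap for either gene, and replicate 4 was the highest CA3 library for both. Without replicate 4 of CA3 their log2 fold changes were -2.02 and -1.48. Unc13c, a synaptic vesicle priming protein also known as Munc13-3, had 0.412, 1.66, 1.62 and 1.55 CPM in CA1 and 18, 5.87, 26.2 and 19 CPM in CA3 (-3.74 ± 0.40, adjusted p = 4.33e-07), and replicate 2 was the lowest of CA3. Svep1, an extracellular matrix protein, was 3.95-fold higher in CA3 (adjusted p = 8.70e-08), Tnfaip8, a protein induced by tumour necrosis factor, 5.68-fold (adjusted p = 1.35e-07) and Fat4, a large protocadherin, 2.26-fold (adjusted p = 1.64e-05). Replicate 4 was the highest CA3 library for Svep1 and Fat4 as well. Without it their log2 fold changes went from -1.98 to -1.83 and from -1.18 to -0.99, and that of Tnfaip8 from -2.51 to -2.575. Calml4, a calmodulin-like protein, had 0.928, 0, 0.464 and 0.309 CPM in CA1 and 6.79, 5.27, 5.08 and 3.73 CPM in CA3 (-3.56 ± 0.42, adjusted p = 1.65e-06). Its log2 fold change was -4.49 without replicate 1 and -3.00 without replicate 2 of CA1. Of the 226 DG marker genes, 57 (25.2%) differed between CA1 and CA3 against 24.8% of all genes tested, with 21 higher in CA1 and 36 higher in CA3. Without replicate 4 of CA3 these were 28 and 32. The summed CPM of the 226 genes was 1672 in replicate 4 of CA3 and 1112 to 1332 in the other CA3 libraries, 110 of the 226 genes were highest of CA3 in replicate 4, and the part of DG tissue in these differences was not tested.

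Lists of genes by role could be followed only as far as symbols reached. Of 12 markers of dentate granule cells 9 had a symbol, of which 5 were higher in CA3, 1 was higher in CA1 and 3 were not called, against 12.7% and 12.1% of all genes tested called in these directions. All 9 have a symbol from the study's DG list. The last were Dsp, Npnt and Rgs13, with log2 fold changes of CA1 over CA3 of -0.79, -1.30 and -0.43. C1ql2, a secreted synaptic organiser of mossy fibres, had 1.24, 1.2, 0.695 and 0.928 CPM in CA1 and 6.55, 7.77, 5.29 and 8.1 CPM in CA3 (6.52-fold, adjusted p = 6.60e-05), against 226 ± 42.8 CPM in DG (SD, n = 3). Plk5, a polo-like kinase of neurons, was 9.53-fold higher in CA3 (adjusted p = 3.95e-05), with a log2 fold change of -3.25 ± 0.50 that was -4.42 without replicate 1 of CA1, and Trpc6, a cation channel, was 2.42-fold higher (adjusted p = 1.15e-05). Prox1, the homeobox factor of granule cells, had 2.27, 4.79, 3.36 and 4.33 CPM in CA1 and 3.21, 9.76, 4.97 and 19.1 CPM in CA3, so that the groups overlapped and replicate 4 lay far above the other CA3 libraries. Its adjusted p was 0.0262 with and 0.124 without that library, and the call was also lost without replicate 2 of CA3, replicate 1 of CA1 or replicate 3 of CA1. Glis3, a zinc-finger factor, was likewise called (adjusted p = 0.038), but not without replicate 4 of CA3 (adjusted p = 0.0988) nor with the rat as a block (adjusted p = 0.0861), and it kept the call in 8 of 18 other settings. Pdyn, the precursor of dynorphin peptides, went the other way, with 11.1, 10.5, 8.81 and 11.4 CPM in CA1 and 1.24, 1.29, 0.634 and 5.83 CPM in CA3 (2.39 ± 0.37, adjusted p = 4.22e-05, and 3.28 without replicate 4 of CA3).

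Of 18 markers of CA1 pyramidal cells 9 had a symbol and all 9 were higher in CA1, and of 22 markers of CA3 pyramidal cells 6 had a symbol and all 6 were higher in CA3. Every symbol came from the study's lists, so these counts follow from that choice. The other defining CA3 markers, such as Bok and Grik4, had no symbol here and were not checked. Of 14 CA2 markers 6 had a symbol. Cacng5, an AMPA receptor auxiliary protein, had 2.37, 8.38, 9.62 and 2.78 CPM in CA1, 56.9, 43.8 and 58.9 CPM in the 3 CA2 libraries and 1.73, 1.55, 3.17 and 3.4 CPM in CA3, so that CA2 was far above both and the CA1 libraries spread widely. Its CA1 over CA3 log2 fold change of 1.37 ± 0.37 (adjusted p = 0.00827) was not called without replicate 2 or without replicate 3 of CA1. Adcy1, a calmodulin-stimulated adenylyl cyclase, was 1.73-fold higher in CA1 (adjusted p = 0.0127), with 59.2 to 99.8 CPM in CA1 and 22.7 to 73.4 CPM in CA3, and was not called without replicate 3 of CA1. Adcy1 has its symbol from the study's DG list, and DG held a mean of 865 CPM of it. Amigo2, an adhesion protein, was 1.62-fold higher in CA3 at an adjusted p of 0.0457, and it kept the call in 5 of 18 other settings. Casr, Ccdc3 and Ntf3 were not called, with log2 fold changes of 0.86, -0.57 and -0.04. Of 24 listed monoamine receptors 4 had a symbol, Htr1b, Htr5b, Drd5 and Drd1 above, and these 4 were called higher in CA1, against 12.1% of all genes tested. The first 3 have a symbol because they stand on the study's CA1 list, and Drd1 kept its call in 9 of 18 other settings, so nothing is read from the count. Of the other lists, Grm2, a presynaptic metabotropic glutamate receptor, had 2.37, 1.2, 2.67 and 3.4 CPM in CA1 and 0.123, 0.432, 0.211 and 1.78 CPM in CA3 (1.99 ± 0.52, adjusted p = 0.00719, and 2.96 without replicate 4 of CA3). Gabrd, the delta subunit of extrasynaptic GABA-A receptors, had 13.1, 11.9, 11.6 and 8.97 CPM in CA1 and 2.96, 6.99, 1.9 and 5.02 CPM in CA3 (2.71-fold, adjusted p = 1.28e-04). The study lists both Grm2 and Gabrd as DG markers, and DG held a mean of 30.6 and 67.8 CPM of them. The CA1 and CA3 libraries overlapped for Grm2 and not for Gabrd. Grik3, Efna1, Cdh13 and the immediate early gene Btg2 were not called, with log2 fold changes of -0.14, 0.29, 0.06 and 0.003. No marker of interneurons, astrocytes, oligodendrocytes, microglia or vessels had a symbol, so the share of other cells in the cut layers was not checked.

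The genes with the smallest p had no symbol. ENSRNOG00000058003 had 246, 242, 262 and 246 CPM in CA1 and 10.5, 27.5, 11.1 and 18.8 CPM in CA3, with 126, 129.5 and 122 CPM in CA2 (log2 fold change of CA1 over CA3 3.86 ± 0.21, adjusted p = 4.32e-11). In the other direction, ENSRNOG00000020455 had 17.4, 17.7, 14.8 and 11.8 CPM in CA1 and 160.3, 154, 168 and 151 CPM in CA3, with 47.2, 36.6 and 45.6 CPM in CA2 (-3.32 ± 0.13, adjusted p = 2.07e-12). The most abundant genes of at least 2-fold difference had no symbol either. ENSRNOG00000007104 was 2.92-fold higher in CA1, with 1806, 1921, 1848 and 1898 CPM in CA1 and 559, 732, 579.7 and 683 CPM in CA3 (adjusted p = 1.32e-09). ENSRNOG00000017060 was 2.34-fold higher in CA3, with 528, 734, 673 and 734 CPM in CA1 and 1340, 1590, 1397 and 1928 CPM in CA3 (adjusted p = 6.13e-07). CA2 lay between both fields for all 4.

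CA2 lay between CA1 and CA3 for most genes that set these apart, but not at the same place for all. On the scale of log2(CPM + 0.5), with 0% at the CA3 mean and 100% at the CA1 mean, CA2 stood at a median of 43.1% for the 103 genes at least 4-fold higher in CA1 with at least 10 CPM there. It was between the fields for 96 of them, nearer to CA3 for 61 and nearer to CA1 for 35. For the 72 genes at least 4-fold higher in CA3 with at least 10 CPM there, the median was 48.4%, and of the 63 in between 31 were nearer to CA3 and 32 nearer to CA1. Over all genes tested CA2 was between the fields for 45.1%, but genes chosen for a large CA1 to CA3 difference leave more room in between, so these shares are a description. In the same fit 2455 genes (14.3%) differed between CA1 and CA2 and 1313 (7.65%) between CA2 and CA3. These comparisons share the CA1, CA2 and CA3 libraries and rest on 3 CA2 libraries, and no test compared the counts with each other.

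The place depends on the scale. On the linear scale of CPM, chosen after seeing the data, the median was 19.6% for the same 103 genes, of which 84 were nearer to CA3, and 69.6% for the same 72 genes, of which 52 were nearer to CA1, so that CA2 lay nearer to the field of lower level in both directions. For single genes the levels and tests were as follows. The CA2 libraries held 53.6, 134 and 86.8 CPM of Wfs1, which differed from CA1 (adjusted p = 9.53e-04) and not past the threshold from CA3 (adjusted p = 0.154), where replicate 2 of CA3 alone had 106 CPM. Arhgap12, with 57.8, 114 and 87.3 CPM in CA2, differed from both CA1 (adjusted p = 6.66e-07) and CA3 (adjusted p = 6.05e-04). Olfm3, with 11.9, 13.4 and 14.8 CPM in CA2, differed from CA1 (adjusted p = 3.07e-08) but not past the threshold from CA3 (adjusted p = 0.538). The second CA2 library, the sum of replicates 2 and 4, was the highest of the 3 for Wfs1 and for Arhgap12. Among the genes of CA3, Hcrtr2 had 1.56, 1.24 and 1.34 CPM in CA2 and Bhlhe23 0, 0 and 0.206 CPM, and both differed from CA3 (adjusted p = 4.00e-08 and 7.38e-08) and not past the threshold from CA1 (adjusted p = 0.974 and 0.695). Frem3, with 8.13, 7.12 and 8.96 CPM in CA2, lay apart from CA1 (adjusted p = 1.98e-06) as well as from CA3 (adjusted p = 1.11e-08). Calml4 was different: CA2 had 7.5, 4.95 and 3.71 CPM, apart from CA1 (adjusted p = 7.53e-06) and with a CA2 over CA3 log2 fold change of -0.01 ± 0.29 (SE, adjusted p = 0.999).

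**Figure D4:**
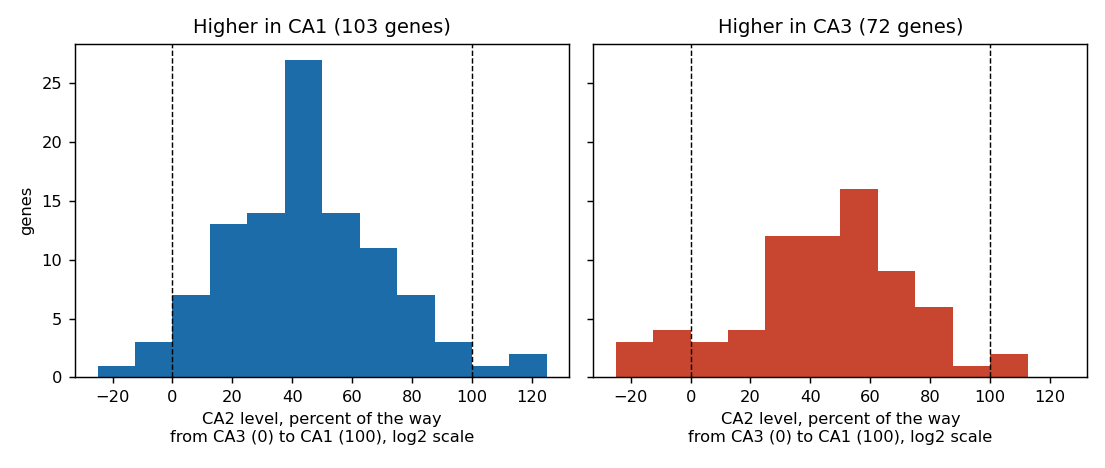
Distribution of the place of CA2 on the way from the CA3 mean (0%) to the CA1 mean (100%), on the log2(CPM + 0.5) scale, for genes at least 4-fold higher in CA1 or in CA3 with at least 10 CPM in the higher subfield; the vertical axis counts genes, and genes beyond either end are drawn in the last bar. Most genes fall between the 2 ends, 96 of 103 and 63 of 72, with medians of 43.1% and 48.4%.

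The CA3 libraries were not alike in the genes of CA1, nor the CA1 libraries in the genes of CA3. Genes at least 4-fold higher in CA1, with at least 10 CPM there, were chosen without 1 CA3 library at a time and that library was then placed, on the linear scale of CPM, on the way from the mean of the other CA3 libraries (0%) to the CA1 mean (100%). Replicate 2 of CA3 lay at a median of 8.16% over 118 genes and was the highest CA3 library for 87 of them (73.7%). Replicates 1, 3 and 4 lay at -4.23%, -3.27% and -0.576%, over 96, 97 and 106 genes. The summed CPM of the study's 34 CA1 marker genes was 335.5 in replicate 2 and 122.7 to 146.2 in the other CA3 libraries, and 24 of the 34 genes were highest there. The part of CA1 tissue in that library was not tested. Leaving it out, 3613 of the 4254 genes (84.9%) were still called in the same direction, and the median log2 fold change of the 323 genes at least 4-fold higher in CA1 went from 2.79 to 2.92. In the same way, the CA1 libraries were placed on the way to the CA3 mean, over genes at least 4-fold higher in CA3. Replicate 2 of CA1 lay at a median of 5.05% over 77 genes and was the highest CA1 library for 46 of them (59.7%), and replicates 1, 3 and 4 lay at -2.41%, 0.869% and -1.15%. The part of CA3 tissue in that library was not tested. Without it 3502 of the 4254 genes (82.3%) were called in the same direction, and the median log2 fold change of the 265 genes at least 4-fold higher in CA3 was -2.80 in place of -2.81.

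Replicate 3 of CA3 differed in the share of its most abundant genes. Its 10 most abundant genes, none with a symbol, took 35.7% of its counts, while these 10 took 22.1% to 27.8% of the other CA3 libraries and 19.5% to 26.6% of the CA1 libraries. The first of them alone took 26.3%. Of the 10 genes, 7 were called higher in CA3, against 12.7% of all genes tested, but they were picked for their abundance in a CA3 library of the fit and nothing is read from the count. Without replicate 3, 1 of the 7 lost the call. Without that library 3441 of the 4254 genes (80.9%) were called in the same direction, and without replicates 2 and 3 together 2701 (63.5%), where CA3 kept 2 libraries. Without each of the 8 libraries in turn, 2889 genes (67.9%) were called in the same direction every time, 1415 higher in CA1 and 1474 higher in CA3.

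**Figure D5:**
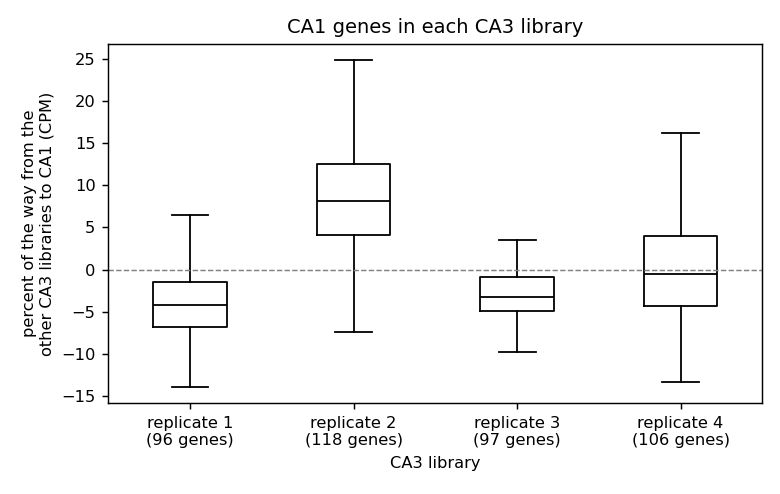
Place of each CA3 library on the way from the mean of the other CA3 libraries (0%) to the CA1 mean (100%), for genes at least 4-fold higher in CA1 chosen without that library. The line is the median, the box spans the quartiles and the whiskers reach the farthest genes within 1.5 box lengths, with genes beyond not drawn; replicate 2 has the highest median, 8.16%, and the medians of the others lie below 0%.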

How the data were processed

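RNA of laser microdissected layers was sequenced by the authors (TruSeq Stranded Total RNA, paired ends, Illumina HiSeq), aligned with STAR to the rat genome Rnor6 with Ensembl annotation, and deposited as raw counts of reads per Ensembl gene for 16 libraries, of which the 4 of CA1 and the 4 of CA3 are compared here. The counting program and its use of strand are not given in the sources used here, so reads of genes overlapping on both strands may not be told apart. The authors' own comparison tables, made with DESeq2, hold fold changes and p-values and were not used. Column names match the labels and all 16 were assigned; replicates 1 to 4 are the columns numbered 2 to 5, and replicates 2 and 3 of CA3 are the columns with raised CA1 genes and with few very abundant genes.

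Replicates 2 and 4 of CA2, and of DG, had a chi-square of 1.001 (CA2) and 1.036 (DG) times its degrees of freedom, under a limit of 1.1, and each pair was summed, which left 14 libraries. Genes with more than 10 counts over these (17174 of 32883) were fitted with edgeR 4.0.16 (limma 3.58.1, R 4.3.3), with TMM normalization, 1 coefficient per subfield and quasi-likelihood F-tests, and p-values were adjusted by Benjamini-Hochberg over all genes tested. Standard errors were taken from the log2 fold change and its F value. CPM use TMM-scaled library totals, and libraries of 3216512 to 11933279 counts limit the precision of low genes; intervals and floors (3 counts) cover counting error only. On simulated counts for CA1 against CA3 (16941 genes), edgeR found 92 of 100 genes changed 2-fold and 100 of 100 changed 4-fold, with 7 wrong calls. The changed genes were drawn from the better counted genes and were few, and no shift of single libraries was simulated. These figures therefore check the fit and do not carry over to genes with few counts or to unlike libraries.

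Same-numbered CA1 and CA3 libraries deviated together from their subfield means (correlations of 0.631, 0.212, 0.129 and 0.308 over 8699 genes, though replicate 3 of CA1 reached 0.246 with replicate 4 of CA3), and labels and methods give 4 rats and shared numbers, so the numbers were taken to mark the rat. Except where the rat is named as a block, p-values and standard errors of genes come from fits without a term for the rat and do not use this pairing. Beyond that, p-values measure the spread between these libraries.

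Symbols came from the study's marker supplement (288 genes). Named genes were, in each direction and among called genes with a symbol, the 12 of smallest p, the 10 of largest fold at 5 CPM or more in the higher subfield, and the 8 of highest CPM at 2-fold or more, then the study's CA1 and CA3 markers, up to 6 of each gene list, and the gene without symbol of smallest p. The 2 most abundant genes without symbol were added after their values were seen, and Dsp, Npnt and Rgs13 to complete a list. Some genes that the rule names are not reported here. The members, lists and rules were chosen with earlier results of these data known. Lists for NMDA receptors, voltage-gated channels, calcium-calmodulin signalling, ribosomal, respiratory, proteasome and glycolysis genes and for interneurons, glia and vessels held no gene with a symbol. Alternatives were other normalizations, filters and tools, the rat as a block, all 16 columns, both subfields alone, and single libraries left out. CA3 replicates 2 and 3 left out together, all libraries thinned to the lowest total, and the place of CA2 in linear CPM were chosen after seeing the data.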

Additional observations from a re-analysis of the deposited data

Results flagged for a closer look

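Among the named genes, 152 groups of 4 libraries were tested for a library that stood apart by Dixon's criterion, and 19 were found. The limit used is meant to flag about 1 in 20 groups of normally distributed values. CPM near 0 are not so distributed, so the number found is a description and no excess is read from it. Replicate 2 of CA3 was the library in 9 of them. It stood high with 3.54 CPM of Lyzl4, 6.56 of Htr5b, 10.7 of Met, 4.92 of Htr1b, 106 of Wfs1, 0.777 of Drd5, 2.94 of Ackr2 and 0.345 of Wnt3a, which are 8 genes of the study's CA1 list, and low for Cdk15, a gene of the same list, at 0 CPM. Replicate 4 of CA3 stood high with 5.83 CPM of Pdyn, a granule cell gene, and 0.162 CPM of Mybpc2. In CA1, replicate 2 stood high with 33.5 CPM of AY172581.19, 17.3 of Unc5d and 0.184 of Fermt1, replicate 1 stood high with 7.53 of Galr1, 0.103 of Bhlhe23 and 0.412 of Olr1353 and low with 0.412 of Unc13c, and replicate 4 stood low with 45.8 of Htr5b. The values of Wnt3a, Mybpc2, Bhlhe23, Fermt1 and Olr1353 rest on 4 reads or fewer in that library. The other libraries of these groups were at 0, so any read was enough to meet the criterion.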

How the results depend on the processing

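The 4254 genes called between CA1 and CA3 were 3619 to 4068 with 1 library left out, and 2817 without CA3 replicates 2 and 3 together, a setting chosen after seeing the data that leaves 2 CA3 libraries. That setting gave 833 genes between CA2 and CA3 in place of 1313; with 1 library left out these were 1068 to 1227, and 2047 to 2228 between CA1 and CA2 in place of 2455. The other settings gave 3090 (without CA3 replicates 1 and 2 together) to 5068 genes between CA1 and CA3. The share of them higher in CA1 was 47.7% to 50.7% over all settings. The rat as a block, a paired fit, gave 5068 genes (2445 higher in CA1 and 2623 higher in CA3), kept 4107 of the 4254 (96.5%), and of the named genes called it lost Glis3 and Drd1 only. DESeq2 called 4118, of which 3989 were shared. Of 69 named genes called, 12 lost the call in some setting: Mybpc2, AABR07061707.1, AABR07070872.1, AY172581.19, Arhgap36, Cacng5, Adcy1, Amigo2, Prox1, Glis3, Grm2 and Drd1. The difference of AY172581.19 was gone without replicate 2 of CA1, at a log2 fold change of -0.0098 and an adjusted p of 0.994. With another single library left out, its log2 fold change reached up to 2.83. Genes under about 1 CPM rest on few reads, and most genes could not be named.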
